A study of Mus musculus with 30 samples.

Results

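The hypoxia response genes described here are 10 genes that sense low oxygen or answer to it: Hif1a, Epas1, Egln1, Egln3, Ankrd37, Bnip3, Ddit4, Ndrg1, Vegfa and Adm. They were taken by exact symbol from both deposited count tables, and all 10 were found among the 23284 genes of each table. All 10 passed the filter on low counts in both. The libraries are of RNA from mouse embryonic stem cells (ES cells) and from embryoid bodies (EBs), the aggregates in which ES cells differentiate in suspension. The wild-type line E14Tg2a.IV (129/Ola background), called E14 here, was kept in medium with serum and LIF and sampled as ES cells at day 0 and as EBs at days 1, 2, 3 and 4, with 2 libraries a day. The genotype comparison used EBs at day 4 from 2 ES cell lines on the C57BL/6J background, both kept in N2B27 medium with LIF and 2i: a Trp53+/+ line, and a Trp53-/- line with p63 and p73 knocked down by shRNAs (written p53 family loss below), with 2 libraries each. The labels name no shRNA in the Trp53+/+ line, and leave unsaid whether a line is 1 clone and whether libraries of 1 group stem from separate cultures. The p-values therefore cover only the spread between these libraries, which may be technical. The labels state the carbon dioxide of the E14 cultures but no oxygen level and no EB size for any of the 14 RNA libraries.

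In cells with enough oxygen, the prolyl hydroxylases Egln1 (PHD2) and Egln3 (PHD3) hydroxylate the HIF alpha subunits Hif1a and Epas1 (HIF-2 alpha), the Vhl complex binds the hydroxylated protein, and the proteasome destroys it. When oxygen falls, the alpha subunits persist, pair with Arnt and bind the core sequences ACGTG and GCGTG (hypoxia response elements) near their targets. This control acts mainly on the protein, so the mRNA of Hif1a is not a measure of HIF activity. Among well known targets, Egln1 and Egln3 feed back on HIF, Bnip3 acts in mitophagy, Ddit4 (REDD1) restrains mTORC1, Ndrg1 is a stress-responsive member of the N-myc downstream regulated family, Ankrd37 is an ankyrin repeat protein, and Vegfa and Adm (adrenomedullin) are secreted factors that act on blood vessels.

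Short stretches of 5 promoters show where these core letters lie upstream of the start of members that were lowest at day 0 and highest at day 3. They come from RefSeq (build GRCm38.p6), run 5′ to 3′ on the gene's own strand, and have each match to ACGTG or GCGTG on either strand in capitals. Overlapping matches form 1 run of capitals, and a match on the other strand reads CACGT or CACGC.
Adm: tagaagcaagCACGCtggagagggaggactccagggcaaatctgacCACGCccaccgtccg
Bnip3: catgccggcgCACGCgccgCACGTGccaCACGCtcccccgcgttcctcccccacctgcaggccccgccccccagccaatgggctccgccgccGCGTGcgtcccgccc
Egln1: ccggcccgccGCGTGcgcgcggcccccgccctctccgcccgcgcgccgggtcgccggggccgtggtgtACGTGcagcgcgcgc
Ddit4: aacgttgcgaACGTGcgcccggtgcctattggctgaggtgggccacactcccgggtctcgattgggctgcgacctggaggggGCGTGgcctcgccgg
Egln3: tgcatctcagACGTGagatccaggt
The stretches lie at chr7:110627557-110627617 (Adm, plus strand), chr7:138909527-138909633 (Bnip3, minus strand), chr8:124949308-124949390 (Egln1, minus strand), chr10:59951871-59951967 (Ddit4, minus strand) and chr12:54204089-54204113 (Egln3, minus strand). The search covered the 250 bases before each start. In that window Bnip3 held 2 matches to ACGTG, which are the 2 strands of 1 CACGTG palindrome, and 3 to GCGTG. Egln1 and Ddit4 held 1 of each, Egln3 held 1 ACGTG, and Adm held 2 GCGTG and no ACGTG. Vegfa held neither in the window of its outermost start and 1 of each at an internal start. The windows of Hif1a (3 ACGTG, of which 2 are the strands of 1 CACGTG) and Ankrd37 (2 ACGTG and 2 GCGTG) are at internal starts and are not printed. The table gave no window for Epas1 and Ndrg1. Of all 32851 windows of this length, 38.6% held at least 1 match, 16.6% held ACGTG and 6.02% held CACGTG, so such letters are common and a match is a description, not a binding site.

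Values below are normalised read counts, with replicate 1 first and replicate 2 second, a mean carries the SD of its n = 2 libraries, and a log2 fold change its SE. They compare a gene across samples and not genes with one another, since they are not divided by transcript length. The 10 E14 libraries held 20104644 to 39835808 reads and the 4 genotype libraries 19104692 to 31580252. The 2 day 0 libraries stood apart from each other: 24.9% of the 15841 genes tested in E14 differed by over 2-fold between them, against 3.86% to 10.6% in the EB days, and 11 of 19 tested p53 targets were over 2-fold higher in replicate 1. Markers of naive pluripotency summed to 2642 and 2052 CPM (reads scaled to the library's total) at day 0 and 91.6 to 254 at days 2 to 4, and streak and mesoderm markers to 2090 and 2115 CPM at E14 day 4. The naive sums at day 4 were mostly Tbx3, whose mean normalised read count rose from 285 at day 3 to 4394 at day 4. Endothelial markers summed to 48.9 to 110.1 CPM over the 10 E14 libraries, highest at day 0. The day 0 sums were mostly Pecam1 and Egfl7, at mean normalised read counts of 1644 and 1168. Cdh5 went the other way, from 5.67 at day 0 to 82.7 at day 4. Of 7 endothelial markers tested, 1 was called higher and 3 lower at day 4 against day 0. Visceral endoderm markers summed to 9.67 to 15.0 CPM, feeder fibroblast markers to 18.2 to 130.1 and neural markers to 83.4 to 292. In bulk RNA, fewer cells of a type and less RNA per cell cannot be told apart.

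Of the 2 HIF alpha subunits among the members, Hif1a mRNA stayed within a narrow range over the 5 days, while Epas1 mRNA moved widely. Hif1a stood at 4500.0 and 5571 at day 0, 5223 and 5755 at day 1, 5672 and 5036 at day 2, 5579 and 4856 at day 3 and 5522 and 5871 at day 4. The days overlapped, and the highest daily mean was 1.13 times the lowest. The log2 fold change of day 4 against day 0 was 0.19 ± 0.17 (adjusted p = 0.40 by limma) and the test of any change over the 5 days gave an adjusted p of 0.86. Epas1 stood at 500.5 and 2270.0 at day 0, 6018 and 3569 at day 1, 542 and 329.8 at day 2, 140.2 and 122 at day 3 and 127 and 277 at day 4. Both day 1 libraries lay above all others, both day 3 libraries and the day 4 libraries lay below both day 0 libraries, and the 2 day 0 libraries were 2.18 apart on the log2 scale. Between the means of day 1 and day 3 the level differed 36.5-fold. Epas1 fell from day 1 to day 2 by 3.45 ± 0.63 on the log2 scale (adjusted p = 0.049) and between day 0 and day 4 its log2 fold change was -2.50 ± 0.63 (adjusted p = 0.012). From day 0 to day 1 its log2 fold change was 2.12 ± 0.63 (adjusted p = 0.10), and 3.21 (adjusted p = 0.0013) without replicate 2 of day 0. The day 1 to day 2 call was lost without replicate 1 of day 1 (adjusted p = 0.49), without replicate 1 of day 2 (adjusted p = 0.15) and without replicate 2 of day 2 (adjusted p = 0.56) and in edgeR (adjusted p = 0.053), and the day 4 call without replicate 1 of day 4 (-1.94, adjusted p = 0.10).

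**Figure D1:**
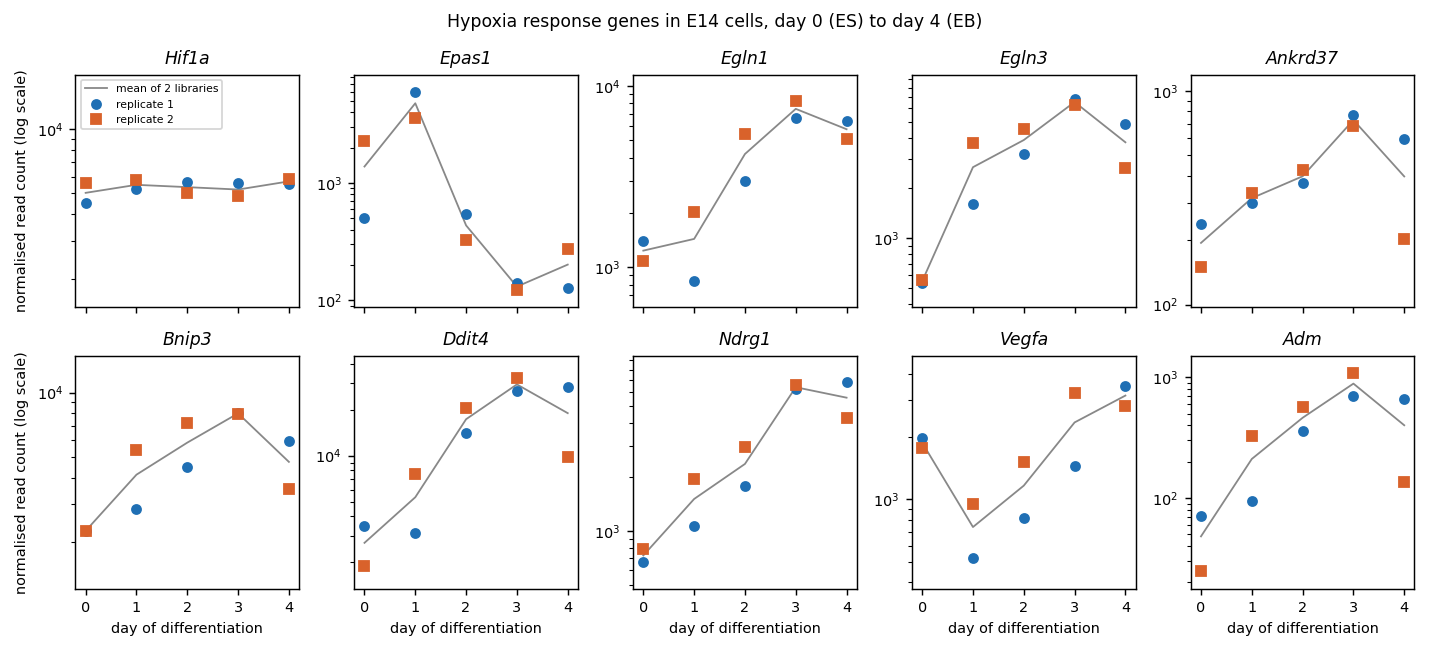
Normalised read count (log axis, a range of its own for each gene) of the 10 genes against day of differentiation in E14 cells. Circles are replicate 1, squares replicate 2, and the line joins the means of the 2 libraries of a day. Egln1, Egln3, Ankrd37, Bnip3, Ddit4, Ndrg1 and Adm have their lowest mean at day 0 and their highest at day 3, Vegfa is lowest at day 1, Epas1 is highest at day 1, and Hif1a varies 1.13-fold between daily means.

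Both oxygen-sensing hydroxylases rose as E14 cells differentiated. Egln1, the main hydroxylase that marks HIF alpha for destruction in most tissues, stood at 1393 and 1076 at day 0, 841 and 2023 at day 1, 3001 and 5419 at day 2, 6689 and 8252 at day 3 and 6426 and 5109 at day 4. Replicate 1 of day 1 lay below both day 0 libraries, and all 6 libraries of days 2 to 4 lay above them. From day 1 to day 2 Egln1 was called higher without replicate 2 of day 1 (2.26, adjusted p = 0.019), and stood at 1.63 (adjusted p = 0.075) with it. Egln1 rose between day 0 and day 4 by 2.23 ± 0.39 on the log2 scale (adjusted p = 0.0022). Egln3, the hydroxylase more strongly induced by low oxygen in many cells, stood at 537 and 563 at day 0, 1611 and 3714 at day 1, 3213 and 4538 at day 2, 6849 and 6261 at day 3 and 4866 and 2647 at day 4. All 8 EB libraries lay above both day 0 libraries, which differed from each other by only 0.07 on the log2 scale. Egln3 rose by 2.71 ± 0.38 from day 0 to day 4 (adjusted p = 6.5e-04) and was the member called higher from day 0 to day 1 (2.15 ± 0.38, adjusted p = 0.019), a step in which 1.75% of all tested genes were called higher. The day 1 call of Egln3 was lost without replicate 2 of day 1 (1.55, adjusted p = 0.12).

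Among the intracellular targets, Ddit4, Ndrg1 and Bnip3 rose between day 0 and day 4, and Ankrd37 changed over the 5 days (adjusted p = 0.046 by limma). Ddit4 stood at 3485 and 1889 at day 0, 3126 and 7562 at day 1, 14091 and 20554 at day 2, 26328 and 32202 at day 3 and 28084 and 9868 at day 4. Replicate 1 of day 1 lay below replicate 1 of day 0, all libraries of days 2 to 4 lay above day 0, and the 2 day 4 libraries were further apart than those of day 3. Ddit4 rose by 2.70 ± 0.52 between day 0 and day 4 (adjusted p = 0.0036). Ndrg1 stood at 665 and 791 at day 0, 1061 and 1955 at day 1, 1791 and 2947 at day 2, 6209 and 6530.4 at day 3 and 6828 and 4305 at day 4. All 8 EB libraries lay above day 0, and the libraries of days 3 and 4 all lay above those of day 2. Ndrg1 had the smallest adjusted p of the members for day 4 against day 0 (2.90 ± 0.33, adjusted p = 2.1e-04). Bnip3 stood at 2264 and 2252 at day 0, 2863 and 5403 at day 1, 4491 and 7179.5 at day 2, 8011 and 7981 at day 3 and 5947 and 3539.8 at day 4. All 8 EB libraries lay above day 0, and the libraries of day 0 and of day 3 each nearly coincided. Bnip3 rose by 1.02 ± 0.33 (adjusted p = 0.037), a call lost without replicate 1 of day 0 (adjusted p = 0.064), without replicate 2 of day 0 (adjusted p = 0.058) and without replicate 1 of day 4 (adjusted p = 0.27). Ankrd37 stood at 239 and 149.6 at day 0, 298 and 331 at day 1, 369 and 428 at day 2, 773 and 686 at day 3 and 593 and 202 at day 4. Replicate 2 of day 4 lay between the 2 day 0 libraries, and the other 7 EB libraries lay above both. The log2 fold change of day 4 against day 0 was 0.87 ± 0.44 (adjusted p = 0.15), and 1.64 (adjusted p = 0.017) without replicate 2 of day 4.

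The 2 secreted factors differed in course. Vegfa, the ligand that drives endothelial growth, stood at 1983 and 1774 at day 0, 521 and 952 at day 1, 812 and 1519 at day 2, 1443 and 3256 at day 3 and 3516 and 2814 at day 4. Both day 1 libraries lay below both day 0 libraries, day 3 spanned the day 0 values, and both day 4 libraries lay above day 0. The test of any change over the 5 days called Vegfa (adjusted p = 0.015), whose highest mean, at day 4, was 4.30 times the lowest, at day 1. Neither end of that course was called against day 0 by limma: the log2 fold change was -1.41 ± 0.42 at day 1 (adjusted p = 0.10) and 0.75 ± 0.42 at day 4 (adjusted p = 0.19). DESeq2 on the recovered reads called Vegfa lower at day 1 (-1.35, adjusted p = 0.025). Adm, a vasodilator peptide, stood at 71.3 and 24.9 at day 0, 93.9 and 327 at day 1, 358 and 565 at day 2, 695 and 1076 at day 3 and 664 and 137 at day 4. All 8 EB libraries lay above both day 0 libraries, with replicates far apart at days 0, 1 and 4. Adm rose by 2.81 ± 0.79 from day 0 to day 4 (adjusted p = 0.021). The Adm call was lost without replicate 2 of day 0 (adjusted p = 0.073) and without replicate 1 of day 4 (adjusted p = 0.18), Vegfa was called lower at day 1 without replicate 2 of day 0 (-1.49, adjusted p = 0.046), and its any-change call was lost without replicate 1 of day 1 (adjusted p = 0.067) or replicate 1 of day 4 (adjusted p = 0.063).

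Counted together, 6 of the 10 genes rose between day 0 and day 4 (Egln1, Egln3, Bnip3, Ddit4, Ndrg1 and Adm), 1 fell (Epas1) and 3 did not pass the test (Hif1a, Ankrd37 and Vegfa). For Egln3, Bnip3, Ndrg1 and Adm, 4 of the 10, all 8 EB libraries lay above both day 0 libraries, against 8.86% of all tested genes. The background was 19.2% of the 15841 tested genes called higher and 16.7% called lower, and the median log2 fold change was 1.62 over the members and 0.013 over all tested genes. In the test of any change over the 5 days 9 members changed, all but Hif1a, against 38.9% of all tested genes. Single steps gave few calls. From day 0 to day 1 Egln3 was the 1 member called by limma and 9 of 10 had a positive log2 fold change, while edgeR called 1 and DESeq2 4, adding Epas1, Vegfa and Ndrg1. From day 1 to day 2 Epas1 was the 1 member called by limma, lower, against 0.436% of all genes called lower, while edgeR called 0 and DESeq2 3. No member was called by limma from day 2 to day 3, where 0.133% of genes were called, or from day 3 to day 4, where 2.93% were called. At an unadjusted p under 0.05 by limma, 4 members passed from day 2 to day 3 and 3 from day 3 to day 4. The share of all tested genes passing that threshold was not counted, so these counts have no background to be judged against. On the recovered reads edgeR called 0 and 0 members over these steps, and DESeq2 1 and 0. Of all 15841 tested genes, DESeq2 called 1450, 1287, 315 and 1015 over the successive steps from day 0 to day 4. Members' median log2 fold change was 0.86, 0.65, 0.83 and -0.59 over the successive steps, which share the libraries of the day between them. Leaving out replicate 1 of day 4 lowered the members called between day 0 and day 4 from 7 to 4. The any-change call was lost for Ankrd37 without replicate 2 of day 0 or any 1 library of days 1 to 3 (adjusted p = 0.060 to 0.17), for Bnip3 without either library of day 3 (adjusted p = 0.053 and 0.057) and for Adm without replicate 2 of day 3 (adjusted p = 0.053).

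**Figure D2:**
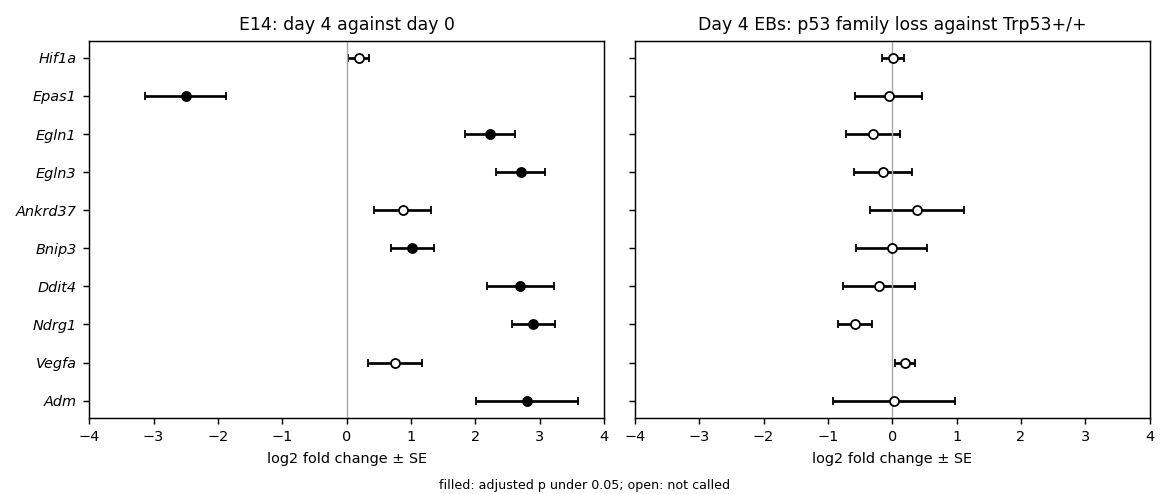
Log2 fold change ± SE by limma of each gene for day 4 against day 0 in E14 (left, 2 libraries a group) and for p53 family loss against Trp53+/+ in day 4 EBs (right, 2 libraries a group). Filled points have an adjusted p under 0.05: 7 of 10 on the left, of which Epas1 is the 1 below 0, and 0 of 10 on the right.

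At days 1, 2 and 4 the members differed between the 2 libraries of a day mostly in 1 direction. At day 1, 9 of the 10 members were higher in replicate 2, with a median log2 difference of 0.90 where the median of all tested genes was -0.0049. At day 2, 8 were higher in replicate 2, with a median of 0.60. At day 4 only Hif1a and Epas1 were higher in replicate 2, and the median was -0.71. At day 0 (4 members higher in replicate 2, median -0.084) and day 3 (5 members, median 0.034) the members were split. Over 2-fold differences were found for 2 members at day 0, 4 at day 1 (Egln1, Egln3, Ddit4 and Adm), 0 at day 2, 1 at day 3 (Vegfa) and 4 at day 4 (Epas1, Ankrd37, Ddit4 and Adm), where 24.9%, 10.6%, 3.86%, 7.37% and 4.75% of all tested genes differed that much. With 1 library on each side these differences have no test.

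Adm, the member with the widest spread, differed between replicates by -1.48, 1.79, 0.66, 0.63 and -2.27 on the log2 scale at days 0 to 4. Epas1 differed by 2.18, -0.75, -0.72, -0.20 and 1.12, the opposite sign from Adm on each day. Ddit4 differed by -0.88, 1.27, 0.54, 0.29 and -1.51, with the sign of Adm on each day, and Hif1a by at most 0.31 in size. The 40 other HIF targets listed for this purpose (glycolytic enzymes, collagen hydroxylases, histone demethylases and secreted proteins) were higher in replicate 2 for 15, 28, 33, 31 and 9 genes at days 0 to 4, with medians of -0.28, 0.41, 0.34, 0.26 and -0.27. Of all 15841 tested genes, 7777, 7835, 8164, 7999 and 8305 were higher in replicate 2 on those days. Naive pluripotency markers also moved with the replicates: they summed to 977 CPM in replicate 1 and 474 in replicate 2 of day 1, and to 167 and 254 at day 4. The day 4 sums were mostly Tbx3, at normalised read counts of 3348 and 5440, where every other listed marker stood at 521 or less. Of the 8 listed markers, 7 were higher in replicate 2 of day 4. On days 1 and 4 the library in which most members were higher had the lower sum, whereas at day 0 replicate 1, in which most of the other HIF targets were higher, had the higher sum (2642 and 2052 CPM). Their part in the replicate differences was not tested.

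**Figure D3:**
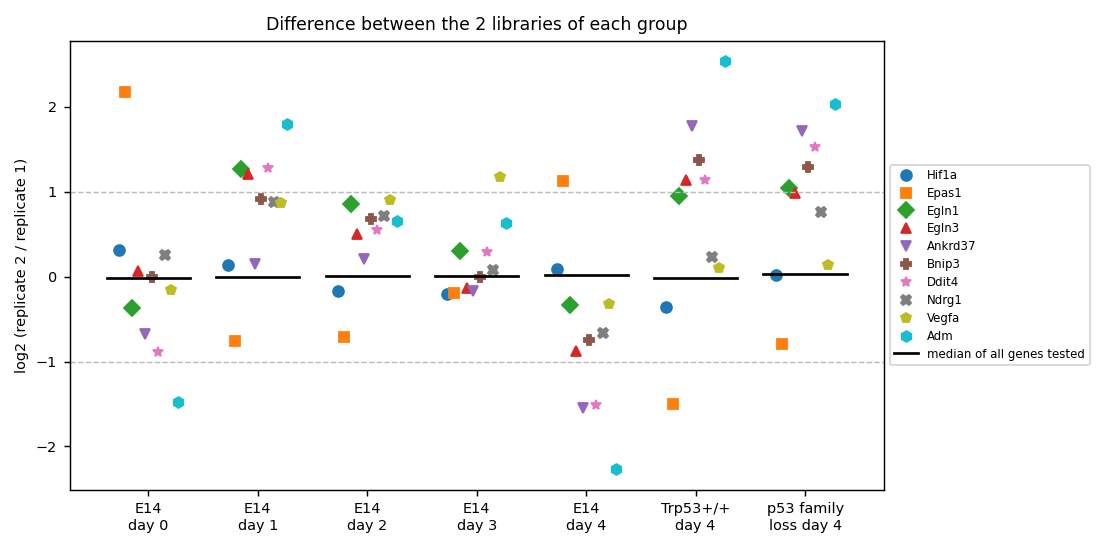
Log2 ratio of replicate 2 to replicate 1 for each of the 10 genes in each of the 7 groups, with the median of all tested genes as a black line and 2-fold differences as dashed lines. Most members lie above 0 at E14 days 1 and 2 and in both genotypes and below 0 at E14 day 4, Epas1 and Adm take opposite signs in each group, and Hif1a stays near 0.

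Across the 10 E14 libraries, Ddit4, Egln1, Egln3, Bnip3, Ankrd37, Adm and Ndrg1 varied together. Over their 21 pairs Pearson's r of log2 values ranged from 0.73 to 0.96, with a median of 0.89. Against these 7 genes, Epas1 gave r from -0.89 to -0.54, Vegfa from 0.14 to 0.61 and Hif1a from -0.11 to 0.29. These values describe libraries that share their day of differentiation and their depth, and the 7 genes were grouped by their shared course. Of 9235 candidate genes with a mean of at least 10 CPM, the 3 most like Ddit4 were Pgk1 (0.988), a glycolytic enzyme, the repressor Bhlhe41 (0.988) and the cyclin Ccng2 (0.984). Those most like Adm were Ccng2 (0.974), Bhlhe41 (0.971) and Ddit4 itself (0.960), and those most like Bnip3 were Nampt (0.970), Ccng2 (0.960) and Adm (0.960). The genes most like Ndrg1, Egln1, Egln3, Ankrd37 and Vegfa were Apln (0.985), which encodes the peptide apelin, Plekhh3 (0.991), Trim12c (0.976), Ier3 (0.945) and Atxn7 (0.980). The 3 genes most like Epas1 were Dctd (0.980), Cdc45 (0.976) and Rrm2 (0.975), which act in nucleotide supply and DNA replication, and Hif1a had its closest likeness with Zdhhc3 (0.895). Reads of Pgk1 may be shared with near-identical retrocopies, and how the authors' counting split them is not given in the sources used here.

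Of 16 further genes of the pathway (partners, the Vhl complex, the other hydroxylases and coactivators), 3 rose and 3 fell between day 0 and day 4, with a median log2 fold change of -0.23. Those counts lie near the background, since 19.2% of all tested genes were called higher and 16.7% lower. The 3 with the smallest p among those called were Cited2 (1.60), a target that competes with HIF for its coactivators, Arnt2 (1.30), an alternative partner of the alpha subunits, and Tceb1 (-0.84), elongin C of the Vhl complex. Hif3a, the third HIF alpha subunit, rose from 474 ± 59.4 at day 0 to 1369.9 ± 175 at day 4 (1.53 ± 0.44, adjusted p = 0.023). Arnt, the usual partner, stood at a log2 fold change of -0.03 (adjusted p = 0.96), Vhl 0.31 (adjusted p = 0.19), the third hydroxylase Egln2 -0.32 (adjusted p = 0.26), and Hif1an, the asparagine hydroxylase FIH, -0.40 (adjusted p = 0.075). The 40 other HIF targets held 17 that rose and 4 that fell, with a median of 0.52. The 17 were Cxcr4, Igfbp3, Ldha, Pgk1, Bnip3l, Bhlhe41, Fam162a, Ero1l, P4ha1, P4ha2, Slc2a1, Car12, Zfp395, Epo, Kdm4b, Pfkfb3 and Pfkfb4, and Angptl4, Edn1 and Kdm3a were among those that fell. Epo lay near the floor, at 0 and 3.56 at day 0 and 9.07 and 15.2 at day 4. By the smallest p the called targets were led by Cxcr4 (6.32), a chemokine receptor of migrating mesendoderm, Igfbp3 (2.26) and Angptl4 (-2.37). Bnip3l, the closest relative of Bnip3, rose by 0.97 ± 0.19, and Pdk1, which diverts pyruvate from mitochondria, stood at -0.14 on the log2 scale (adjusted p = 0.68). Without replicate 1 of day 4 the count of other targets that rose was 9, and without replicate 1 of day 0 the count that fell was 7.

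Among the partners of the 2 secreted members, 6 of 9 genes on the Vegf list and 2 of 6 tested on the adrenomedullin list rose over the same interval. Of all tested genes, 19.2% were called higher and 16.7% lower. Of the 9 further Vegf ligands and receptors, 6 rose and 1 fell, with a median of 1.53, and Kdr (VEGFR2) went from 109 ± 33.5 at day 0 to 8849.9 ± 496 at day 4, a log2 fold change of 6.36. Nrp1, a co-receptor, rose by 5.95 and Flt1 (VEGFR1) by 3.91. Kdr also marks early mesoderm, whose marker list, Kdr included, rose in 8 of 8 members. Of 6 tested adrenomedullin ligands and receptors, Ramp2 (2.53), the partner that makes Calcrl an adrenomedullin receptor, and Cxcr7 (2.76), a scavenging receptor, rose, and Ramp3 (-1.08) fell, while Calcrl stood at 1.68 (adjusted p = 0.089). Of the other Ndrg genes, Ndrg3 rose by 1.37 and the other two did not pass the test. Around Ddit4, the list of mTORC1 regulators held 2 that rose (Sesn1, 1.07, and Tsc1, 0.97, a subunit of the complex through which Ddit4 acts) and 1 that fell (Sesn2, -1.32) of 11, with a median of 0.02. Neither count on that list exceeded the share over all tested genes.

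Genes of the integrated stress response and of p53 mostly fell or did not pass the test over the same interval, in which 16.7% of all tested genes were called lower. The integrated stress response, which also drives Ddit4 and Vegfa in other settings through Atf4, had 5 of 10 genes lower and 1 higher at day 4 (median -1.04), including Asns (-1.94), Sesn2 and Atf4 (-1.01) among those that fell. Among 19 tested p53 targets, a group to which Ddit4 has also been assigned in other cells, 7 fell and 1 rose (median -0.80), led by Ephx1 (-2.76), Gdf15 (-3.04) and Sesn2 (-1.32). As given above, 11 of the 19 were over 2-fold higher in replicate 1 than in replicate 2 of day 0. Sesn2 is on the mTORC1, integrated stress response and p53 lists, and Sesn1 on the mTORC1 and p53 lists. The counts of these lists are therefore not independent.

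In the genotype comparison the members were compared between day 4 EBs of the Trp53+/+ line and of the p53 family loss line. The library labels were checked first: Trp53 stood at 8339 and 11784 in Trp53+/+ and at 866 and 802 in p53 family loss, a fall of 3.57 ± 0.20 on the log2 scale (adjusted p = 0.0017). Trp73 fell by 2.32 ± 0.28 (adjusted p = 0.022), Trp63 was too low to test in every library, and Mdm2, a p53 target, stood at -0.68 ± 0.18 (adjusted p = 0.16). Of the p53 targets, 6 of 19 fell, led by Ccng1 (-4.23), Phlda3 (-5.25) and Eda2r (-4.85). None of the 10 hypoxia response genes was called by limma, with 0 at an unadjusted p under 0.05, 0 by edgeR and 0 by DESeq2, where 1.24% of the 14840 tested genes were called in either direction. Their median log2 fold change was -0.035.

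For 2 members, Ndrg1 and Vegfa, the libraries of the genotypes did not overlap, against 43.1% of all tested genes. Ndrg1 stood at 1973 and 2324 in Trp53+/+ and 1097 and 1859.6 in p53 family loss, and both loss libraries lay below both Trp53+/+ libraries. Its log2 fold change was -0.58 ± 0.27 (adjusted p = 0.42 by limma), with a 95% interval from -1.23 to 0.062. The genotype fits here carry no replicate block, a setting that changed the calls of Ndrg1 and Egln1, as given in the last section. Vegfa stood at 1522 and 1628 and 1721 and 1895, both loss libraries above both Trp53+/+ libraries, with a log2 fold change of 0.20 ± 0.15 (adjusted p = 0.67) and an interval from -0.18 to 0.57. Hif1a stood at 5504 and 4304 in Trp53+/+ and 4878 and 4923 in p53 family loss, with an interval from -0.41 to 0.43.

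For the other members the replicates of each genotype lay further apart than the genotypes did. Ddit4 stood at 3931 and 8655 in Trp53+/+ and 2978 and 8588 in p53 family loss, with an interval of the log2 fold change from -1.54 to 1.13. Adm stood at 50.4 and 297 and 61.3 and 255, with an interval from -2.26 to 2.32. In both genotypes replicate 1 of these 2 genes was low and replicate 2 high. The same held for Bnip3, at 1150.2 and 2978 and 1172 and 2877 (-1.34 to 1.32), and for Ankrd37, at 99.0 and 342 and 132 and 436 (-1.38 to 2.14). Egln1 stood at 2270.1 and 4373 and 1781 and 3671 (-1.32 to 0.71) and Egln3 at 1279.7 and 2826 and 1223 and 2416 (-1.23 to 0.94), again with replicate 2 the higher. Epas1 alone had replicate 1 clearly higher, at 501 and 176 and 376 and 217 (-1.31 to 1.19). These intervals come from the fit without a replicate block, so the replicate difference seen in both genotypes counts toward their width. They leave room for differences of 2-fold or more in either direction for Ddit4, Adm, Bnip3, Ankrd37 and Epas1.

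**Figure D4:**
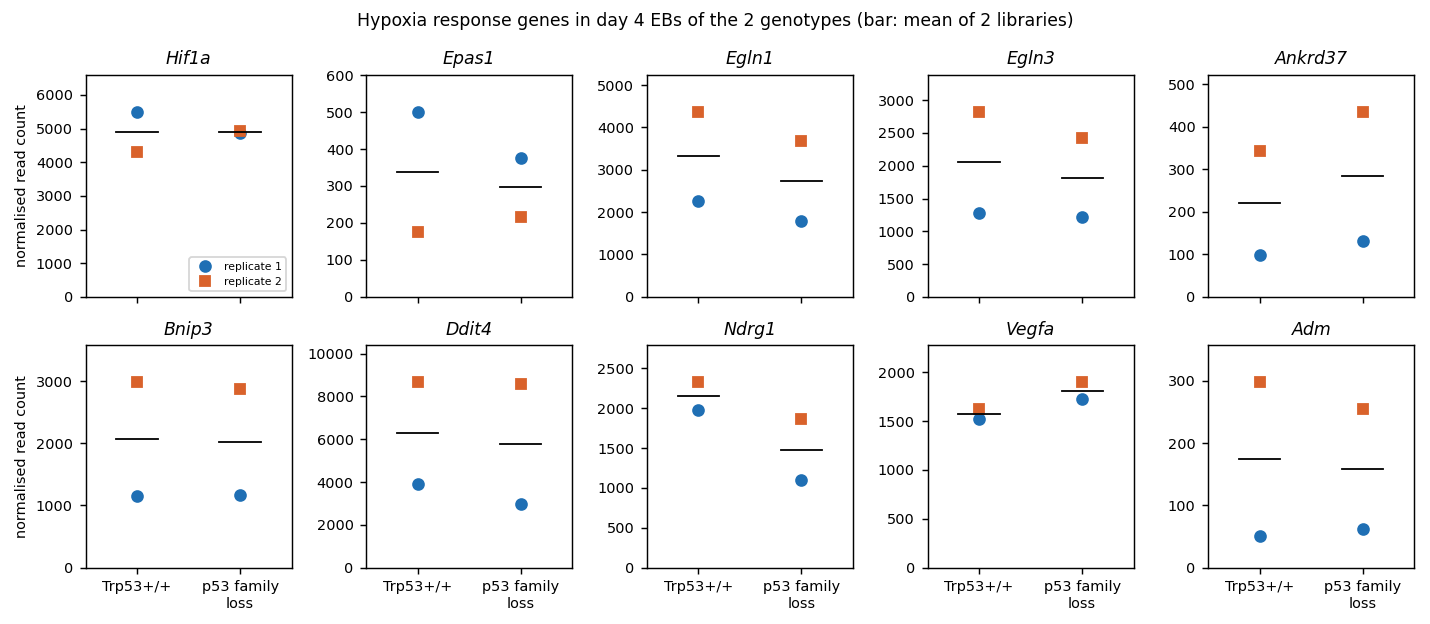
Normalised read count (linear axis from 0, a range of its own for each gene) of the 10 genes in day 4 EBs of the Trp53+/+ line and of the p53 family loss line. Circles are replicate 1, squares replicate 2 and bars the mean of the 2 libraries. Replicate 2 lies above replicate 1 in both genotypes for Egln1, Egln3, Ankrd37, Bnip3, Ddit4, Ndrg1, Vegfa and Adm, and below it for Epas1.

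Over 2-fold differences between replicates were found for 6 of 10 members in Trp53+/+ (Epas1, Egln3, Ankrd37, Bnip3, Ddit4 and Adm) and for 5 in p53 family loss (Egln1, Ankrd37, Bnip3, Ddit4 and Adm), where 8.01% and 4.01% of all tested genes differed that much. The members' median log2 difference was 1.04 and 1.01, and 28 and 32 of the 40 other HIF targets were higher in replicate 2. Of all 14840 tested genes, 7250 and 7900 were higher in replicate 2. Other measures moved with the replicate number in both genotypes. Visceral endoderm markers (8 listed, of which 1 was at 0 in each replicate 2) summed to 33.5 and 4.87 CPM in Trp53+/+ and to 17.9 and 9.34 in p53 family loss. Naive pluripotency markers summed to 222 and 131 CPM in Trp53+/+ and to 165 and 116 in p53 family loss. In each genotype 0 of the 8 naive markers were higher in replicate 2. The share of reads on the ribosomal RNA gene Rn45s was 0.632% and 4.30% in Trp53+/+ and 0.848% and 2.91% in p53 family loss. Their part in the members' spread was not tested. Without replicate 1 of Trp53+/+ the log2 fold changes of Adm, Ddit4, Egln1, Egln3 and Bnip3 were -1.24, -0.78, -0.77, -0.72 and -0.70. Without replicate 2 of Trp53+/+ they were 1.30, 0.36, 0.17, 0.43 and 0.67. With 1 library left in a group, that library is assumed to vary like the others.

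Of the list around Ddit4, its paralog Ddit4l fell by 2.68 ± 0.28 in p53 family loss (adjusted p = 0.016), while Ddit4 itself was not called. No gene of the HIF pathway, the Vegf list, the adrenomedullin list, the Ndrg family or the integrated stress response was called by limma. Streak and mesoderm markers summed to 1304 and 1343 CPM in Trp53+/+ and 305 and 250 in p53 family loss. Neural markers summed to 148 and 221 CPM in Trp53+/+ and 360.0 and 369 in p53 family loss, feeder fibroblast markers to 58.6 and 48.7 and to 131 and 97.0, and endothelial markers to 53.6 and 50.4 and to 87.9 and 67.3.

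The E14 and Trp53+/+ EBs at day 4 differ in line, strain background and maintenance medium, so their values are set side by side in CPM without a test. Ndrg1 stood at 235 and 144 CPM in E14 and 81.8 and 91.7 in Trp53+/+, and Vegfa at 121 and 94.2 and at 63.1 and 64.2. For both genes both E14 libraries were above both Trp53+/+ libraries. How many of all genes did the same was not counted, so the separation is not shown to be particular to these genes. Between the 2 genotypes, also 2 libraries against 2, the libraries of 43.1% of all tested genes did not overlap. Ddit4 stood at 967 and 330.4 CPM in E14 and 163 and 341 in Trp53+/+, and Bnip3 at 205 and 118.5 and at 47.7 and 117.5. For these 2 genes replicate 2 of Trp53+/+ lay near replicate 2 of E14. For Bnip3 both E14 libraries were above both Trp53+/+ libraries, replicate 2 by little, and for Ddit4 the lines overlapped. Egln1 stood at 221 and 171 CPM in E14 and 94.1 and 173 in Trp53+/+, Egln3 at 168 and 88.6 and at 53.1 and 111, and Ankrd37 at 20.4 and 6.77 and at 4.11 and 13.5. Adm stood at 22.9 and 4.59 CPM in E14 and at 2.09 and 11.7 in Trp53+/+. Epas1 stood at 4.37 and 9.28 CPM in E14 and at 20.8 and 6.96 in Trp53+/+, and for all 5 of these genes the lines overlapped. Hif1a, at 190.1 and 197 CPM in E14 and 228 and 169.8 in Trp53+/+, overlapped too.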

How the data were processed

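Counts came from 14 RNA libraries of mouse ES cells and EBs, 2 per group. The 16 ChIP-seq and input samples were not analysed here. Per the labels' protocols, TruSeq RNA v2 libraries were sequenced with paired ends. The submitters' processing notes name, with no roles, the build mm9 and the tools HTSeq 0.5.4, Bowtie2, FastQC 0.11.3, DESeq2 and SAMtools 0.1.19. The deposited values are a signal, namely reads over a single factor for the library: 100% were whole reads within 1e-06 after division by the library's step. In the genotype table the deposited factor was 1.06 to 1.09 times a median-of-ratios factor and in the time course 1, so levels are set across tables only in CPM.

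Each table was fitted whole in R 4.3.3 by limma 3.58.1 (trended prior) on log2(signal + 1), without a replicate block, on genes kept by filterByExpr (15841 and 14840), with Benjamini-Hochberg adjusted p under 0.05 as a call. Fold changes on this scale understate those of low genes. Alternatives were edgeR 4.0.16 and DESeq2 1.42.0 on the recovered reads, other pseudocounts, no filter, TMM scaling, a replicate block and leaving out each library. The scripts were tested on simulated data. Promoter windows came from RefSeq (GRCm38.p6), matched by symbol for 8 of 10 members, and were not mapped to mm9.

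The members, gene lists, markers and tests were chosen with earlier results of these data known. All members are named, with the 3 called genes of smallest p in each list and, for likeness of pattern, the 3 genes of highest Pearson's r, for some members only the first. Hif3a, Arnt, Vhl, Egln2, Hif1an, Pdk1, Calcrl, Bnip3l and the other called HIF targets were named after their values were seen. Cxcr7 stands in the tables for Ackr3, and Tigar was not matched. Some results are not reported here.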

Additional observations from a re-analysis of the deposited data

How the results depend on the processing

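Between day 0 and day 4 and over all days the members called stayed within 1.5 times of 7 and 9 under every alternative tool, pseudocount, filter and scaling run, while leaving out single libraries gave 4 to 8 and 6 to 9. From day 0 to day 1, where limma called 1, DESeq2 called 4 and leaving out single libraries gave 0 to 3. From day 1 to day 2, where limma called 1, edgeR, a pseudocount of 0.5, no filter and the replicate block each called 0, DESeq2 called 3 and leaving out single libraries gave 0 to 2. From day 2 to day 3 DESeq2 called 1 where limma called 0. The any-change call of Ankrd37 was lost without the filter (adjusted p = 0.060). Of all genes, DESeq2 called 1450 where limma called 523 from day 0 to day 1, 1287 where it called 94 from day 1 to day 2, 315 where it called 21 from day 2 to day 3, 1015 where it called 464 from day 3 to day 4, and 657 where it called 184 between genotypes. Leaving out single libraries gave 2817 to 7619 of all genes called between day 0 and day 4 (5698 with all), 67 to 5176 from day 0 to day 1 (most without replicate 2 of day 0), 0 to 806 from day 1 to day 2, 1 to 17 from day 2 to day 3, 43 to 238 from day 3 to day 4, 3444 to 10525 over all days (6159 with all) and 208 to 1613 between genotypes. Without the filter 21 genes were called from day 1 to day 2. The causes were not tested.

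Between the genotypes, leaving out single libraries moved the log2 fold changes of members in either direction. The log2 fold change of Adm ranged from -1.24 to 1.30 and that of Bnip3 from -0.70 to 0.67. Without either Trp53+/+ library the variance prior of limma had infinite degrees of freedom, so that a gene's own spread did not enter its test.

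The labels tie same-numbered libraries by nothing but the number. The replicate differences of the E14 days correlated at -0.19 to 0.35 across genes and those of the 2 genotypes, a single pair of groups, at 0.57. Whether same-numbered genotype libraries share a batch was not tested. With the replicate block, 2 members were called between genotypes, Ndrg1 (-0.58, adjusted p = 0.0037) and Egln1 (-0.30, adjusted p = 0.046), and 2973 of all genes where 184 were called without it. Every test rests on 2 libraries a group, and the lowest value of any member was that of Adm in replicate 2 of day 0, a normalised read count of 24.9.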
